A study of Homo sapiens with 6 samples.

Results

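Mitotic spindle and checkpoint genes were followed in a lung cancer line under 2 treatments. The set holds 40 genes chosen by name for their roles in mitosis, with earlier results of these data known. All 40 were found among the 18404 genes that the platform annotation names alone on a probe set. In 1 of them, BIRC5, the brighter of several probe sets stood for the gene. The cells, H226, are an established line from a squamous carcinoma of the lung. They hold an inducible shRNA, switched on by doxycycline, against p63, a transcription factor of basal and squamous epithelium. Nutlin-3 cells, in which the shRNA stayed off, were given the drug at 10 µM for 12 h. It is a small molecule that frees p53 from its inhibitor MDM2. The shp63 ON cells were kept in doxycycline at 1 µg/mL for 48 h. Control cells got neither agent and had the shRNA off, and all cells had been plated in RPMI with 10% fetal calf serum 24 h before. Each group had 2 Affymetrix HuGene 1.0 ST arrays. Values are log2 intensities, in which a difference of 1 is a doubling.

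A cell enters mitosis when cyclin B switches on the kinase CDK1. Microtubules of the spindle then attach to each chromosome at its kinetochore, and the spindle checkpoint holds back the anaphase-promoting complex (APC/C), a ubiquitin ligase, until every kinetochore is attached. Most of these genes are transcribed late in the cell cycle. Their promoters are known for CCAAT boxes, bound by the factor NF-Y, and for a short element called the cell cycle genes homology region (CHR), bound by MuvB complexes, which repress as DREAM in resting cells and activate with B-MYB and FOXM1 in dividing ones. After p53 activation the p21 protein is known to favour the repressing form.

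The promoters of 4 members that recur below are shown as examples that differ in motif content and in response. They do not stand for all members with the same motifs. BUB1B, with CHR letters and no CCAAT like ANLN, had log2 fold changes of −1.45 with Nutlin-3 and −1.83 in shp63 ON. NCAPH, with CCAAT and no CHR letters like PTTG1, had −1.36 and −1.83. Each is the stretch of 150 bases just before the transcript start, 5′ to 3′ on the strand of the gene, from RefSeq with the build GRCh38.p14, and capitals mark, on either strand, matches to the NF-Y box, which is CCAAT, and to the CHR letters TTTGAA. The other CHR spelling searched for, TTCGAA, does not occur in these 4.
MKI67, chr10:128126424-128126573, minus strand: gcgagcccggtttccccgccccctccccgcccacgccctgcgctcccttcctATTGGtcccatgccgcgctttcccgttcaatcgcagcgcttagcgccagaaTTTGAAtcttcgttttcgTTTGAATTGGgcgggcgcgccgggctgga
PLK1, chr16:23678739-23678888, plus strand: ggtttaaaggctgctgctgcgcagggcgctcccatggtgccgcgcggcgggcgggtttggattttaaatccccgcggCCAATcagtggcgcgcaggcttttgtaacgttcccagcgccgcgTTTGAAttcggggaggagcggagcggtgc
ANLN, chr7:36389712-36389861, plus strand: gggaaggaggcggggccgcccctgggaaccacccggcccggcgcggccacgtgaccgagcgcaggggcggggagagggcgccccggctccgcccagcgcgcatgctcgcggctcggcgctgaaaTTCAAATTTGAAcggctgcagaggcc
PTTG1, chr5:160421705-160421854, plus strand: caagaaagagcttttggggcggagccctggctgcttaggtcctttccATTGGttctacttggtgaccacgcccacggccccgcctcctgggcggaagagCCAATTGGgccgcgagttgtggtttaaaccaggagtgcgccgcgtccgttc
MKI67 held CHR letters 47 and 29 bases before the start, the second overlapping a reversed CCAAT, and PLK1 held 1 CHR and 1 CCAAT. ANLN had 2 adjoining CHR matches on opposite strands and no CCAAT. PTTG1 had CCAAT matches, 2 of them overlapping, and no CHR.

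RefSeq windows were at hand for 32 members, with 43 windows in all, each running from 250 bases before to 50 after a transcript start. CHR letters (TTTGAA or TTCGAA, either strand) stood in 69.8% of these windows, against 16.4% of all 35116 windows. CCAAT on either strand stood in 74.4%, against 34.6%, and both together in 55.8%, against 6.4%. By gene, 26 members held CHR letters. Their median log2 fold change was −0.80 with Nutlin-3 and −1.62 in shp63 ON, beside −0.57 and −1.38 for the 6 members without (CCNB1, CENPE, NEK2, NCAPH, PTTG1 and AURKB). The CCAAT split ran the other way with Nutlin-3, with a median of −0.67 in the 26 members that held CCAAT and −1.05 in the 6 without, and in shp63 ON the medians were −1.58 and −1.42. For members with both motifs the medians were −0.71 with Nutlin-3 and −1.66 in shp63 ON, beside −0.68 and −1.40 for the other 11. None of these differences was tested. The remaining members, BIRC5, KNL1, TPX2, TTK, BUB3, UBE2C, FOXM1 and AURKA, were not searched.

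**Figure D1:**
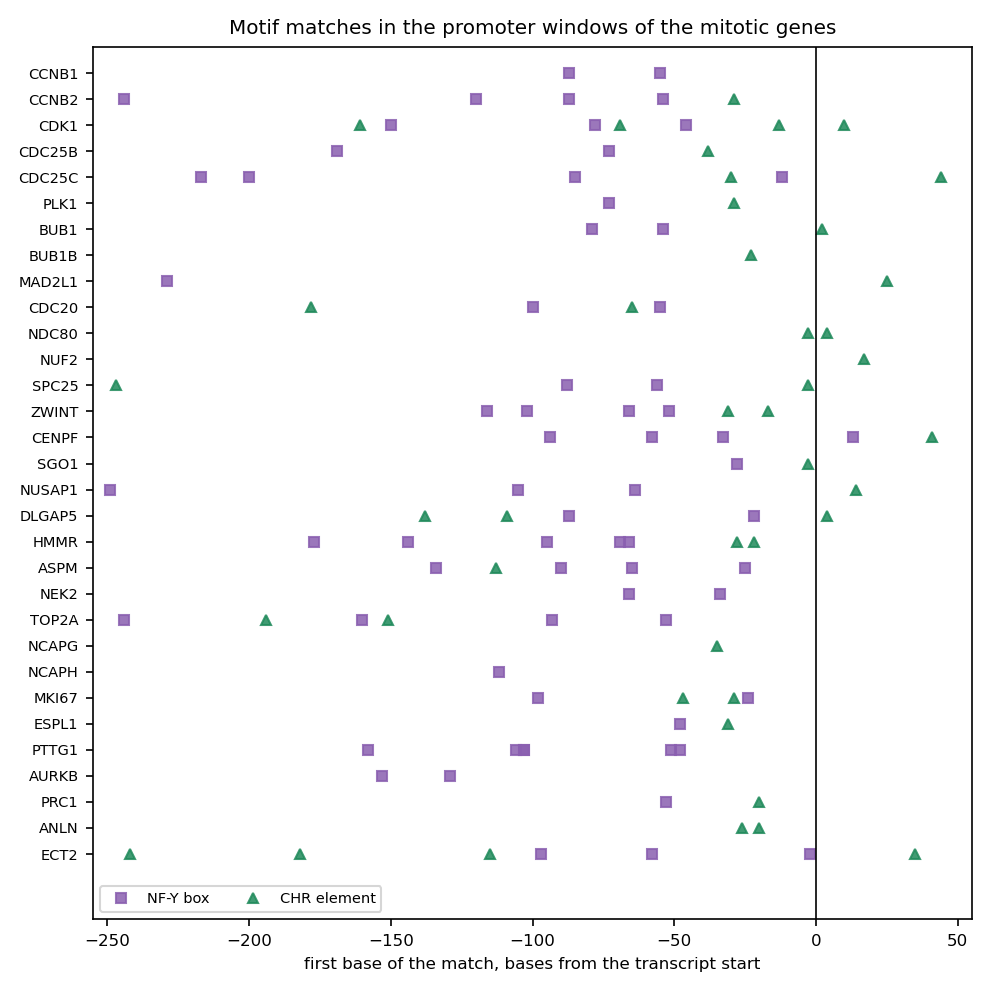
Positions of motif matches in the promoter windows of the 31 members that held any match, one row per gene. The x axis gives the first base of the match in bases from the transcript start, with all windows of a gene in its row. Squares are NF-Y boxes (CCAAT) and triangles CHR elements (TTTGAA or TTCGAA), both on either strand. CHR letters started within 100 bases before the start in 17 members, among them ANLN and PLK1, and PTTG1 shows squares only.

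These genes were lower than control in both treated groups, and most were lowest in shp63 ON. The mean of the 40 members was 7.40 and 7.28 on the Nutlin-3 arrays and 6.67 and 6.69 on the shp63 ON arrays, against 8.04 and 8.09 on the control arrays. The median of all genes lay between 7.26 and 7.33 on every array. With Nutlin-3, 37 of 40 members fell, where 8.89% of all genes were called lower (limma's moderated test, Benjamini-Hochberg adjusted p under 0.05 over all genes). The study itself named a one-way analysis of variance over the groups. By contrasts of group means within that model, with the same adjustment, 15 of 40 were lower with Nutlin-3. The 15 were FOXM1, BUB1, BUB1B, MAD2L1, TTK, CDC20, SPC25, SGO1, TPX2, NEK2, NCAPH, MKI67, BIRC5, PRC1 and ANLN. By those contrasts every other member that limma had called lost its Nutlin-3 call, such as PLK1 (adjusted p = 0.0525), NCAPG (0.0571) and KNL1 (0.0958). Calls of genes outside the 40 members were not checked in this way. In shp63 ON, 37 of 40 fell by limma, where 16.5% of all genes were called lower, and 36 by analysis of variance. No member passed as higher in either comparison by limma, where 9.64% of all genes did so with Nutlin-3 and 19.7% in shp63 ON. At an unadjusted p under 0.05, limma had 1 member higher with Nutlin-3 and 0 in shp63 ON, and a one-way analysis of variance had 0 in both. Fewer cells in mitosis and less of each RNA per mitotic cell cannot be told apart in such bulk samples.

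The sizes differed more than the counts. Members had a median log2 fold change of −0.68 with Nutlin-3 and −1.54 in shp63 ON, beside medians near 0 over all genes (0.00 and 0.04). Called falls of at least 1.5-fold numbered 26 with Nutlin-3, against 1.78% of all genes, and 35 in shp63 ON, against 4.66%. The 2 Nutlin-3 arrays lay wholly below the 2 control arrays in 37 members (30.3% of all genes), and the 2 shp63 ON arrays did so in 39 (30.4% of all genes). Replicates lay close, with a median gap between replicates over the members of 0.13 in Nutlin-3, 0.08 in shp63 ON and 0.07 in control. In 34 of 40 members Nutlin-3 replicate 1 read above replicate 2. Both comparisons use the same control arrays, so a control array that reads high lowers both.

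**Figure D2:**
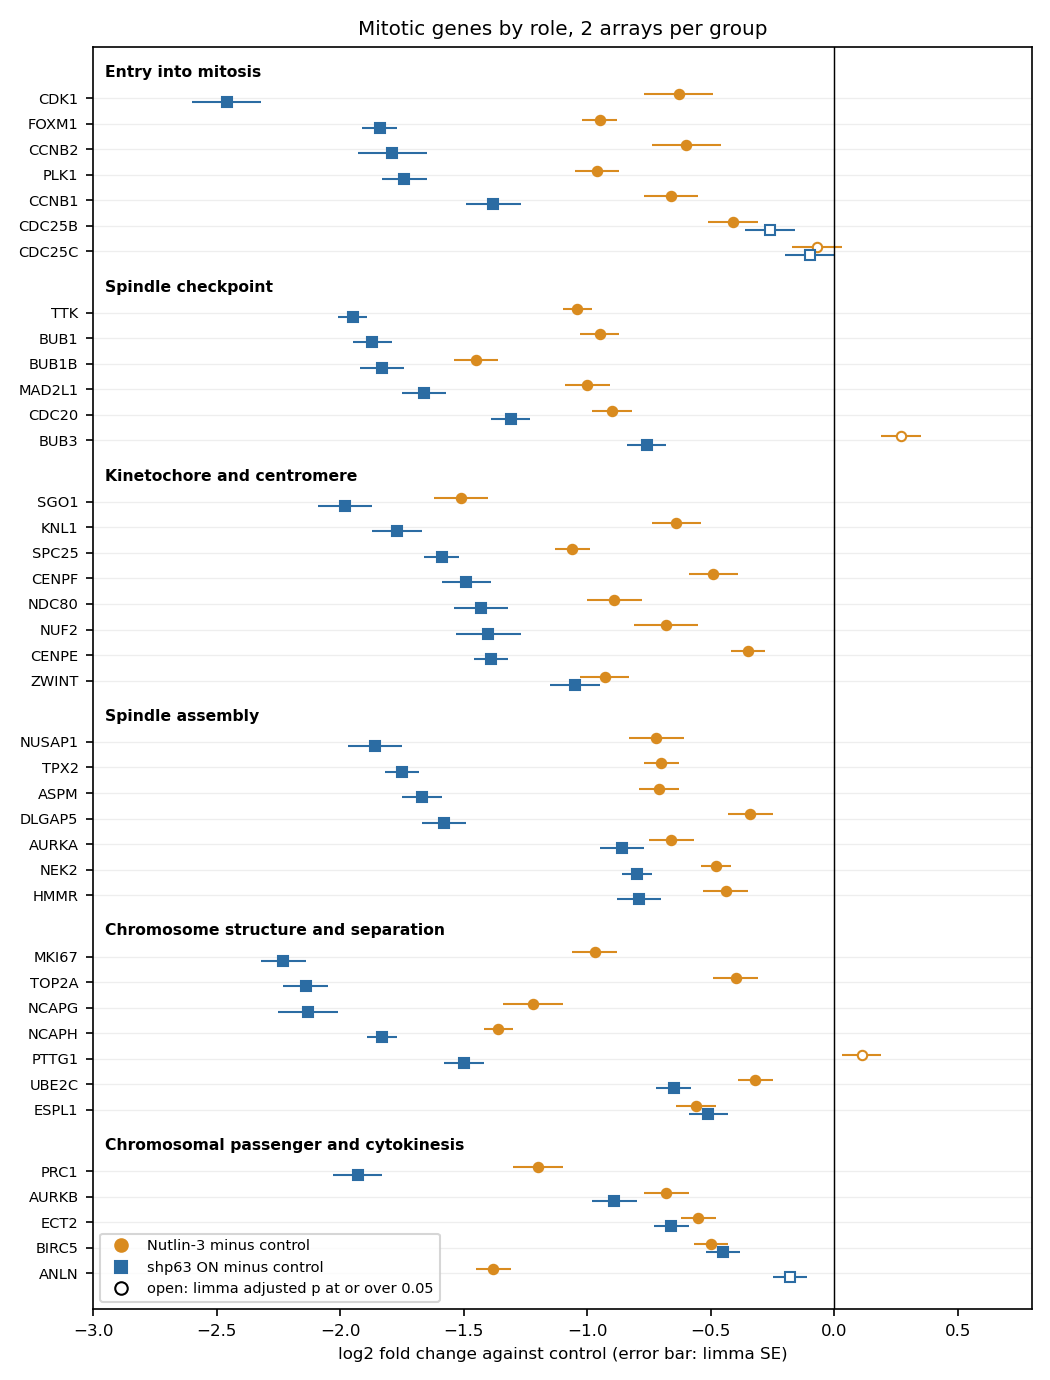
Log2 fold change against control for the 40 mitotic genes, grouped by role. Circles give Nutlin-3 and squares shp63 ON, bars are limma standard errors, 2 arrays per group, and open symbols did not pass at an adjusted p of 0.05. Most squares lie left of the circles, with ANLN the other way round, and PTTG1 and BUB3 have circles right of 0.

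Of the genes that drive entry into mitosis, all but CDC25C fell with Nutlin-3, and all but CDC25B and CDC25C fell in shp63 ON. Of 7, 6 fell with Nutlin-3 (median −0.63) and 5 in shp63 ON (median −1.74). CDK1, the mitotic kinase itself, read 7.30 and 6.88 on the Nutlin-3 arrays and 5.22 and 5.29 on the shp63 ON arrays, against 7.59 and 7.84 on the control arrays. Its values did not overlap between any of the groups. It fell by 0.63 on the log2 scale with Nutlin-3 (SE 0.14, limma adjusted p = 0.0208) and fell by 2.46 in shp63 ON (SE 0.14, adjusted p = 3.0e-05), the largest fall of a member there at 5.52-fold. PLK1, the polo-like kinase that promotes entry and spindle formation, read 9.44 and 9.27 on the Nutlin-3 arrays and 8.63 and 8.53 on the shp63 ON arrays, against 10.22 and 10.42 on the control arrays. That was a fall of 1.95-fold with Nutlin-3 and 3.34-fold in shp63 ON. FOXM1, a transcription factor of late cell cycle genes, fell by 0.95 with Nutlin-3 and fell by 1.84 in shp63 ON (log2, SE 0.07 in both).

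The B-type cyclins, which activate CDK1, moved alike. CCNB1 fell by 0.66 with Nutlin-3 and fell by 1.38 in shp63 ON (log2, SE 0.11), and CCNB2 fell by 0.60 and fell by 1.79 (SE 0.14). CDC25B, a phosphatase that removes the inhibitory phosphates of CDK1, read 7.32 and 7.05 on the Nutlin-3 arrays and 7.25 and 7.42 on the shp63 ON arrays, against 7.56 and 7.64 on the control arrays. It fell by 0.41 with Nutlin-3 (SE 0.10, limma adjusted p = 0.0303) and had a log2 fold change of −0.26 in shp63 ON without passing (adjusted p = 0.0840, range over 15 alternatives 0.0425 to 0.343). Its relative CDC25C, which acts on the same phosphates, read 5.50 and 5.54 on the Nutlin-3 arrays and 5.47 and 5.50 on the shp63 ON arrays, within the control values of 5.74 and 5.44. It passed in neither comparison (limma adjusted p = 0.686 and 0.447), and it was the only member that overlapped control in shp63 ON.

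Several Nutlin-3 calls in this role were lost when 1 array was left out. Such a fit leaves 1 array in a group and 2 residual degrees of freedom, so a call can be lost with little change in size. Over the arrays left out, log2 fold changes with Nutlin-3 ran from −0.69 to −0.63 for CCNB1 and from −0.63 to −0.57 for CCNB2. They ran from −0.83 to −0.42 for CDK1 and from −0.55 to −0.28 for CDC25B. CCNB1 lost its call when control replicate 2 was dropped, with a limma adjusted p of 0.0519 (0.00172 to 0.123 over 15 alternatives). CCNB2 did not pass without any 1 of control replicate 1 (0.108), control replicate 2 (0.103), Nutlin-3 replicate 1 (0.0631) or Nutlin-3 replicate 2 (0.0862), with a range of 0.00230 to 0.193. CDK1 did not pass without control replicate 2 (0.123) or Nutlin-3 replicate 2 (0.0638), with a range of 0.00599 to 0.190, and without Nutlin-3 replicate 2 its log2 fold change was −0.42. CDC25B did not pass without control replicate 1 (0.104), control replicate 2 (0.148) or Nutlin-3 replicate 2 (0.116), with a range of 0.0150 to 0.189. The calls of PLK1 and FOXM1 with Nutlin-3, and all shp63 ON calls of this role, held when any 1 array was left out. CDC25B gained a call in shp63 ON in the fit of those 2 groups alone (limma adjusted p = 0.0425). Leaving out either Nutlin-3 array only repeats that fit.

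Spindle checkpoint genes fell together, with BUB3 standing apart under Nutlin-3. Of 6, 5 fell with Nutlin-3 (median −0.97) and 6 in shp63 ON (median −1.74). BUB1B, the BubR1 subunit that binds and inhibits CDC20, read 7.22 and 7.25 on the Nutlin-3 arrays and 6.75 and 6.96 on the shp63 ON arrays, against 8.61 and 8.76 on the control arrays. The treated arrays all lay more than 1 log2 unit below control, with a fall of 2.73-fold with Nutlin-3 and 3.55-fold in shp63 ON. TTK, the kinase that starts checkpoint signalling, read 6.15 and 6.12 on the Nutlin-3 arrays and 5.21 and 5.23 on the shp63 ON arrays, against 7.15 and 7.19 on the control arrays. Replicates of TTK lay close, and it fell by 1.04 with Nutlin-3 and fell by 1.95 in shp63 ON (log2, SE 0.06, limma adjusted p = 3.8e-05 and 5.5e-06).

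The kinase BUB1, which recruits the checkpoint to kinetochores, fell by 0.95 with Nutlin-3 and fell by 1.87 in shp63 ON. MAD2L1, the Mad2 protein that captures CDC20, fell by 1.00 and fell by 1.66, and CDC20, the APC/C activator that the checkpoint restrains, fell by 0.90 and fell by 1.31 (log2, SE 0.08 to 0.09). BUB3, the partner that brings BUB1 and BubR1 to kinetochores, read 10.38 and 10.48 on the Nutlin-3 arrays and 9.30 and 9.50 on the shp63 ON arrays, against 10.14 and 10.17 on the control arrays. Nutlin-3 values lay above control and shp63 ON values below it. The Nutlin-3 difference of 0.27 did not pass (SE 0.08, limma adjusted p = 0.0645), although it did under 7 of 15 alternatives (range 0.0165 to 0.241), among them the fits without shp63 ON replicate 1 or replicate 2 (0.0470 each). In shp63 ON it fell by 0.76 (SE 0.08, adjusted p = 6.5e-04).

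Kinetochore and centromere genes all fell in both comparisons, 8 of 8 each. The median was −0.79 with Nutlin-3 and −1.46 in shp63 ON. SGO1, shugoshin, which shields centromeric cohesin until anaphase, read 6.62 and 6.66 on the Nutlin-3 arrays and 6.01 and 6.34 on the shp63 ON arrays, against 8.11 and 8.19 on the control arrays. Its Nutlin-3 log2 fold change of −1.51 ( SE 0.11, limma adjusted p = 8.9e-05) was the largest of any member, and it fell by 1.98 in shp63 ON. KNL1, the scaffold on which BUB1 and BubR1 dock, read 7.81 and 7.77 on the Nutlin-3 arrays and 6.53 and 6.79 on the shp63 ON arrays, against 8.37 and 8.49 on the control arrays. It fell by 1.55-fold with Nutlin-3 and 3.40-fold in shp63 ON, with no overlap among the groups.

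The Ndc80 complex, which holds the microtubule end, has NDC80, NUF2 and SPC25 among the members. Their log2 fold changes were −0.89, −0.68 and −1.06 with Nutlin-3 and −1.43, −1.40 and −1.59 in shp63 ON. The remaining subunit, SPC24, is not a member and fell by 0.59 with Nutlin-3 and by only 0.40 in shp63 ON (SE 0.10). CENPE, the kinesin that carries chromosomes to the spindle equator, fell by 0.35 with Nutlin-3 and fell by 1.39 in shp63 ON (SE 0.07), and CENPF, a large outer kinetochore protein, fell by 0.49 and fell by 1.49 (SE 0.10). ZWINT, which links KNL1 to the RZZ checkpoint complex, fell by 0.93 and fell by 1.05. Without control replicate 2 the Nutlin-3 calls of NUF2 (limma adjusted p = 0.0774, 0.00352 to 0.152 over 14 alternatives), CENPE (0.0845, range over 15 alternatives 0.00660 to 0.0845) and CENPF (0.0725, range 0.00507 to 0.134) were lost. CENPE also did not pass without control replicate 1 (0.0557) or Nutlin-3 replicate 1 (0.0556), nor CENPF without Nutlin-3 replicate 2 (0.0625).

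**Figure D3:**
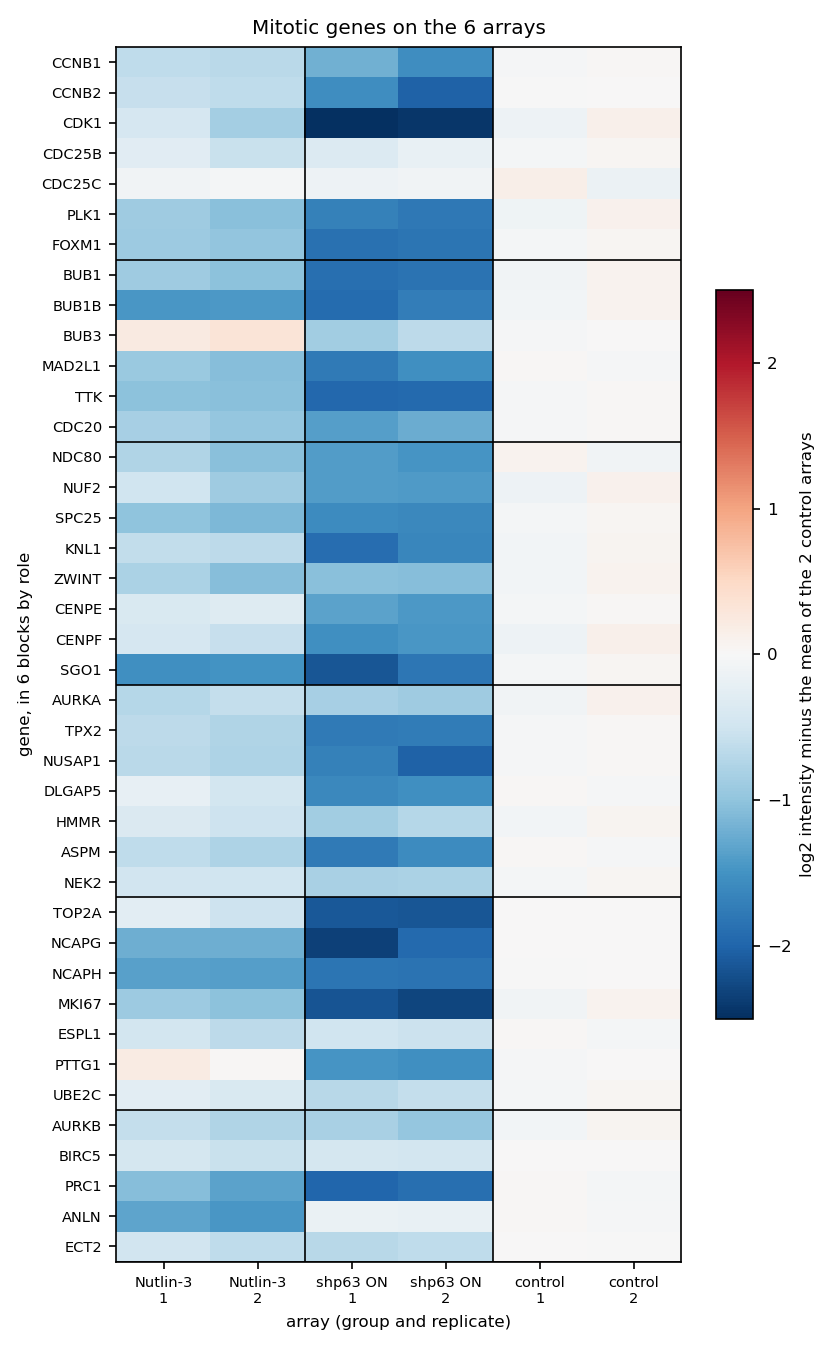
Colour map of the 40 mitotic genes on each of the 6 arrays, as log2 intensity minus the mean of the 2 control arrays (blue lower, red higher), with genes in 6 blocks by role. Columns run from Nutlin-3 through shp63 ON to control, 2 replicates each. CDK1, MKI67, TOP2A and NCAPG are among the darkest rows in the shp63 ON columns. BUB3 is faintly red with Nutlin-3, and ANLN is blue with Nutlin-3 and pale in shp63 ON.

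Of 7 spindle assembly genes, all 7 fell with Nutlin-3 (median −0.66) and all 7 in shp63 ON (median −1.58). NUSAP1, which bundles spindle microtubules near chromosomes, read 7.63 and 7.54 on the Nutlin-3 arrays and 6.62 and 6.29 on the shp63 ON arrays, against 8.29 and 8.33 on the control arrays. It fell by 1.65-fold with Nutlin-3 and 3.62-fold in shp63 ON. DLGAP5, also called HURP, which stabilises kinetochore fibres, read 7.77 and 7.52 on the Nutlin-3 arrays and 6.36 and 6.44 on the shp63 ON arrays, against 8.0 and 7.96 on the control arrays. Its Nutlin-3 log2 fold change was small (−0.34, SE 0.09, limma adjusted p = 0.0383), while in shp63 ON it fell by 1.58 (SE 0.09, adjusted p = 3.0e-05).

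The DLGAP5 call with Nutlin-3 was lost with arrays centred on their medians (limma adjusted p = 0.0643) and in the fit of the 2 groups alone (0.0582). Leaving out either shp63 ON array only repeats that fit. By analysis of variance with the same adjustment the call was also lost (0.186). The log2 fold change of DLGAP5 was −0.32 without control replicate 1, −0.36 without control replicate 2 and −0.22 without Nutlin-3 replicate 2. The kinase AURKA, which matures the spindle poles, fell by 0.66 with Nutlin-3 and fell by 0.86 in shp63 ON, whereas its activator TPX2 fell by 0.70 and fell by 1.75. ASPM, a spindle pole protein, fell by 0.71 and fell by 1.67, and NEK2, the kinase that separates centrosomes, fell by 0.48 and fell by 0.80. HMMR, a microtubule-binding protein of the spindle, fell by 0.44 and fell by 0.79, and its Nutlin-3 call was lost without control replicate 2 (0.0868, range over 14 alternatives 0.0100 to 0.123) or Nutlin-3 replicate 2 (0.0635).

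Among 7 genes of chromosome structure and separation, 6 fell with Nutlin-3 (median −0.56) and 7 in shp63 ON (median −1.83). MKI67, the Ki-67 antigen that coats mitotic chromosomes and marks cycling cells, read 8.70 and 8.58 on the Nutlin-3 arrays and 7.46 and 7.31 on the shp63 ON arrays, against 9.52 and 9.70 on the control arrays. The groups stood in 3 separate steps, with a fall of 1.96-fold with Nutlin-3 and 4.69-fold in shp63 ON. TOP2A, the topoisomerase that untangles sister chromatids, read 8.78 and 8.54 on the Nutlin-3 arrays and 6.93 and 6.91 on the shp63 ON arrays, against 9.05 and 9.06 on the control arrays. Nutlin-3 values thus fell below control but lay closer to it than to shp63 ON, with a log2 fold change of −0.40 (SE 0.09, limma adjusted p = 0.0183). The shp63 ON values dropped by 2.14 (SE 0.09, adjusted p = 7.5e-06).

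The condensin subunits, which compact mitotic chromosomes, fell steeply in both. NCAPH read 6.83 and 6.81 on the Nutlin-3 arrays and 6.36 and 6.34 on the shp63 ON arrays, against 8.17 and 8.19 on the control arrays, a fall of 2.57-fold with Nutlin-3 and 3.56-fold in shp63 ON. NCAPG fell by 1.22 and fell by 2.13 (log2, SE 0.12). ESPL1, separase, the protease that cuts cohesin at anaphase, fell by 0.56 with Nutlin-3 and fell by 0.51 in shp63 ON (SE 0.08). UBE2C, the ubiquitin-conjugating enzyme of the APC/C, fell by 0.32 and fell by 0.65 (SE 0.07).

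PTTG1 is securin, which holds separase inactive. It read 6.85 and 6.67 on the Nutlin-3 arrays and 5.18 and 5.11 on the shp63 ON arrays, against 6.63 and 6.66 on the control arrays. Nutlin-3 values lay at or just above control (0.11, SE 0.08, limma adjusted p = 0.365), and shp63 ON values fell 2.83-fold (log2 SE 0.08, adjusted p = 2.1e-05). PTTG1 has near-identical copies in the genome that its probes may also bind. In this role the Nutlin-3 calls of TOP2A (control replicate 1, 0.0970; control replicate 2, 0.0923; Nutlin-3 replicate 2, 0.0612; range over 15 alternatives 0.00548 to 0.136) and UBE2C (0.0737, 0.126 and 0.0954 without the same arrays; range 0.0123 to 0.126) were lost when 1 array was left out.

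Chromosomal passenger and cytokinesis genes numbered 5, of which 5 fell with Nutlin-3 (median −0.68) and 4 in shp63 ON (median −0.66). Anillin, ANLN, which scaffolds the contractile ring that divides the cell, read 9.90 and 9.76 on the Nutlin-3 arrays and 11.04 and 11.02 on the shp63 ON arrays, against 11.24 and 11.18 on the control arrays. Nutlin-3 values lay far below both other groups. It fell by 1.38 with Nutlin-3 (SE 0.07, limma adjusted p = 2.2e-05), or 2.59-fold, and had a log2 fold change of −0.18 in shp63 ON without passing (SE 0.07, adjusted p = 0.0891, range over 15 alternatives 0.0242 to 0.385). PRC1, which bundles the microtubules of the central spindle, read 8.61 and 8.35 on the Nutlin-3 arrays and 7.69 and 7.79 on the shp63 ON arrays, against 9.71 and 9.64 on the control arrays. PRC1 thus stood in the opposite order to ANLN, with a fall of 2.29-fold with Nutlin-3 and 3.82-fold in shp63 ON.

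AURKB, the kinase of the chromosomal passenger complex, fell by 0.68 with Nutlin-3 and fell by 0.89 in shp63 ON (log2, SE 0.09). ECT2, the exchange factor that activates RhoA at the division plane, fell by 0.55 and fell by 0.66 (SE 0.07). BIRC5, survivin, a subunit of the passenger complex, fell by 0.50 and fell by 0.45 (SE 0.07). These values come from the brighter of its probe sets. The other read 5.52 and 5.38 with Nutlin-3 and 5.54 and 5.35 in shp63 ON, against 5.37 and 5.40 in control, and with the mean of both neither call passed (limma adjusted p = 0.0837 and 0.0761, highest over 15 alternatives in both comparisons).

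Set directly against each other, shp63 ON lay below Nutlin-3 in most members. Of 40, 31 were called lower in shp63 ON, against 24.0% of all genes, and 1 was called higher, against 27.5% of all genes, and in 34 the arrays lay wholly below (35.7% of all genes), with a median log2 difference of −0.72. The lower calls of at least 1.5-fold numbered 22, against 7.13% of all genes. The largest differences were in CDK1 (−1.84, SE 0.14, limma adjusted p = 6.7e-05), TOP2A (−1.74, SE 0.09, adjusted p = 1.2e-05) and PTTG1 (−1.61, SE 0.08, adjusted p = 1.1e-05). BUB3 differed by −1.03 (SE 0.08), DLGAP5 by −1.25 (SE 0.09) and KNL1 by −1.13 (SE 0.10). Times and agents differ between these groups, 12 h of Nutlin-3 and 48 h of doxycycline, so the difference cannot be read at a matched time.

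ANLN was the member that went the other way, 1.20 higher in shp63 ON than with Nutlin-3 (SE 0.07, limma adjusted p = 2.4e-05, range over 15 alternatives 4.4e-08 to 0.00861). That difference lay at percentile 99.7 of all genes. ANLN kept this call under every alternative listed for it, the fits without any 1 array among them. AURKA (−0.20), AURKB (−0.21), ZWINT (−0.12), ECT2 (−0.11), CDC25C (−0.04), BIRC5 (0.05), ESPL1 (0.05) and CDC25B (0.15) did not pass, with SE from 0.07 to 0.10. With each array centred on its median, AURKA, AURKB and ECT2 also passed as lower (limma adjusted p = 0.0166, 0.0148 and 0.0296). BUB1B (−0.38) lost its call without shp63 ON replicate 1 (0.0568, range 0.00249 to 0.0846). HMMR (−0.34) lost its call without that array (0.0823) or Nutlin-3 replicate 1 (0.0690, range over 14 alternatives 0.00313 to 0.0936), and AURKB gained one without Nutlin-3 replicate 2 (0.0457, range 0.0148 to 0.333).

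**Figure D4:**
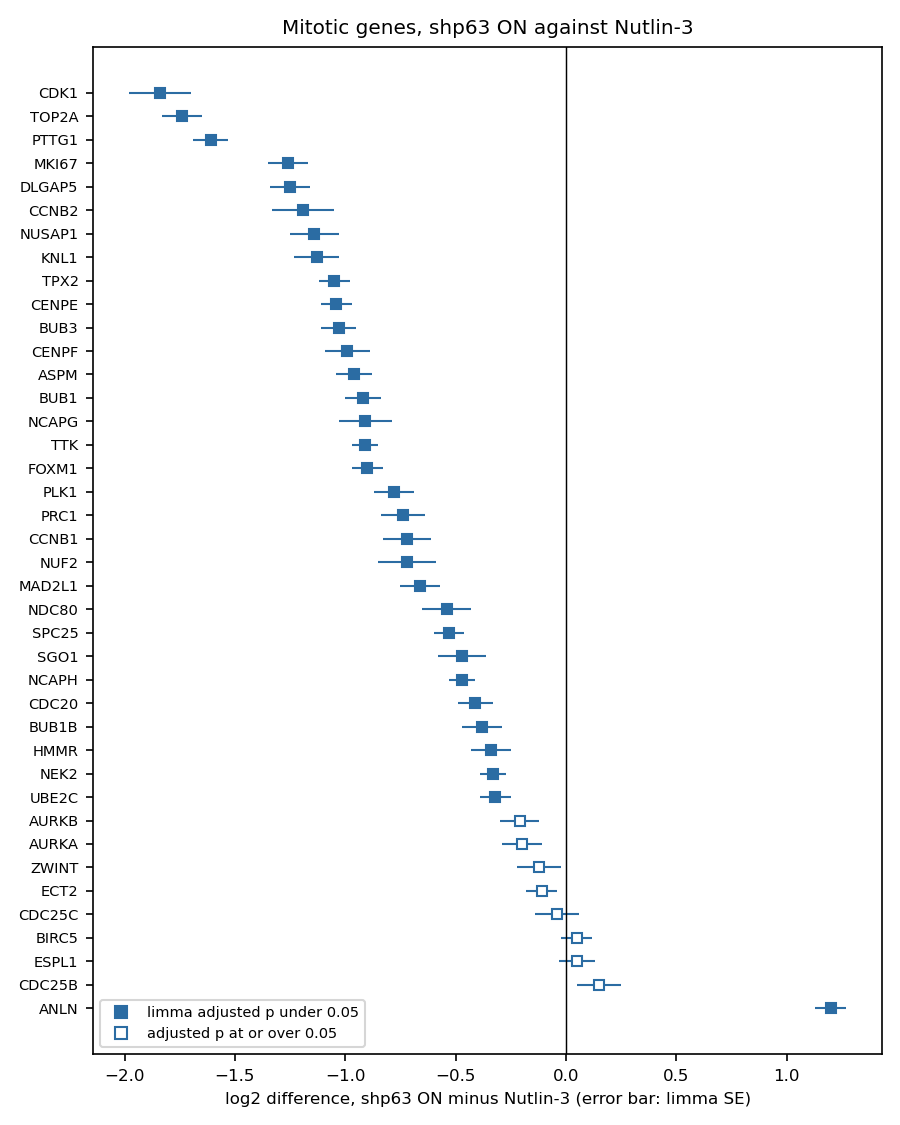
Log2 difference between shp63 ON and Nutlin-3 for the 40 mitotic genes, ordered by size, with limma standard errors and 2 arrays per group. Filled squares passed at an adjusted p under 0.05. CDK1, TOP2A and PTTG1 lie furthest left, and ANLN alone is filled on the right, at 1.20.

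Other genes of mitosis, taken from lists chosen by function with earlier results of these data known, moved unevenly. Their counts stand beside shares of all genes called lower of 8.89% with Nutlin-3 and 16.5% in shp63 ON, and called higher of 9.64% and 19.7%. Of 15 other kinetochore and checkpoint genes, 9 fell with Nutlin-3 (median −0.47) and 10 in shp63 ON (median −0.53). SKA1, of the Ska complex that tracks microtubule ends, fell by 1.47 with Nutlin-3 and fell by 1.68 in shp63 ON (SE 0.07). SKA3 of the same complex fell by 1.13 and fell by 2.21 (SE 0.08). Of 14 other mitotic entry genes, 11 fell with Nutlin-3 (median −0.70) and 12 in shp63 ON (median −1.14). CCNA2, cyclin A2, fell by 1.11 and fell by 2.05 (SE 0.08). PLK4, the kinase of centriole duplication, had log2 fold changes of −1.62 with Nutlin-3 and −1.32 in shp63 ON (SE 0.08).

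Of 8 other chromosomal passenger and cytokinesis genes, 5 fell and 1 rose with Nutlin-3 (median −0.49), and 5 fell in shp63 ON (median −0.71). CEP55, which readies the midbody for abscission, fell by 1.14 and fell by 1.95 (SE 0.08). Of 16 APC/C subunits and regulators, 2 fell with Nutlin-3 (median 0.04), a share near the 8.89% of all genes, and 8 fell and 1 rose in shp63 ON (median −0.20), where 16.5% of all genes fell and 19.7% rose. The 2 were the APC/C inhibitor FBXO5, also called EMI1, with 7.90 and 7.90 on the Nutlin-3 arrays and 7.51 and 7.68 on the shp63 ON arrays, against 9.32 and 9.29 on the control arrays, and the conjugating enzyme UBE2S, which fell by 0.44 with Nutlin-3 (SE 0.08).

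Of 19 microtubule nucleation and augmin genes, 7 fell and 1 rose with Nutlin-3 (median −0.21), where 8.89% of all genes fell and 9.64% rose, and 14 fell in shp63 ON (median −0.54), where 16.5% did. CKAP2, a microtubule-associated spindle protein, fell by 1.74 in shp63 ON (SE 0.07, limma adjusted p = 7.5e-06), with 7.61 and 7.51 there, against 9.31 and 9.29 in control. It read 9.27 and 9.17 with Nutlin-3 and did not pass (adjusted p = 0.467). CKAP5, the microtubule polymerase chTOG, rose by 0.29 with Nutlin-3 and fell by 0.32 in shp63 ON (SE 0.07).

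Of 13 genes of the MuvB and DREAM complexes and B-MYB, 6 fell and 2 rose with Nutlin-3 (median −0.20), where 8.89% of all genes fell and 9.64% rose. In shp63 ON 11 fell and 1 rose (median −0.53), where 16.5% of all genes fell and 19.7% rose. MYBL2, B-MYB itself, read 7.49 and 7.36 on the Nutlin-3 arrays and 7.12 and 7.19 on the shp63 ON arrays, against 9.10 and 9.23 on the control arrays, a fall in both. The pocket proteins that join E2F to MuvB differed. RBL1, p107, fell by 1.67 with Nutlin-3 and fell by 1.27 in shp63 ON (SE 0.08). RBL2, p130, read 9.43 and 9.31 on the Nutlin-3 arrays and 8.06 and 8.09 on the shp63 ON arrays, against 8.41 and 8.31 on the control arrays. It rose by 1.01 with Nutlin-3 (SE 0.07, limma adjusted p = 1.0e-04) and fell by 0.28 in shp63 ON (SE 0.07, adjusted p = 0.0194).

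**Figure D5:**
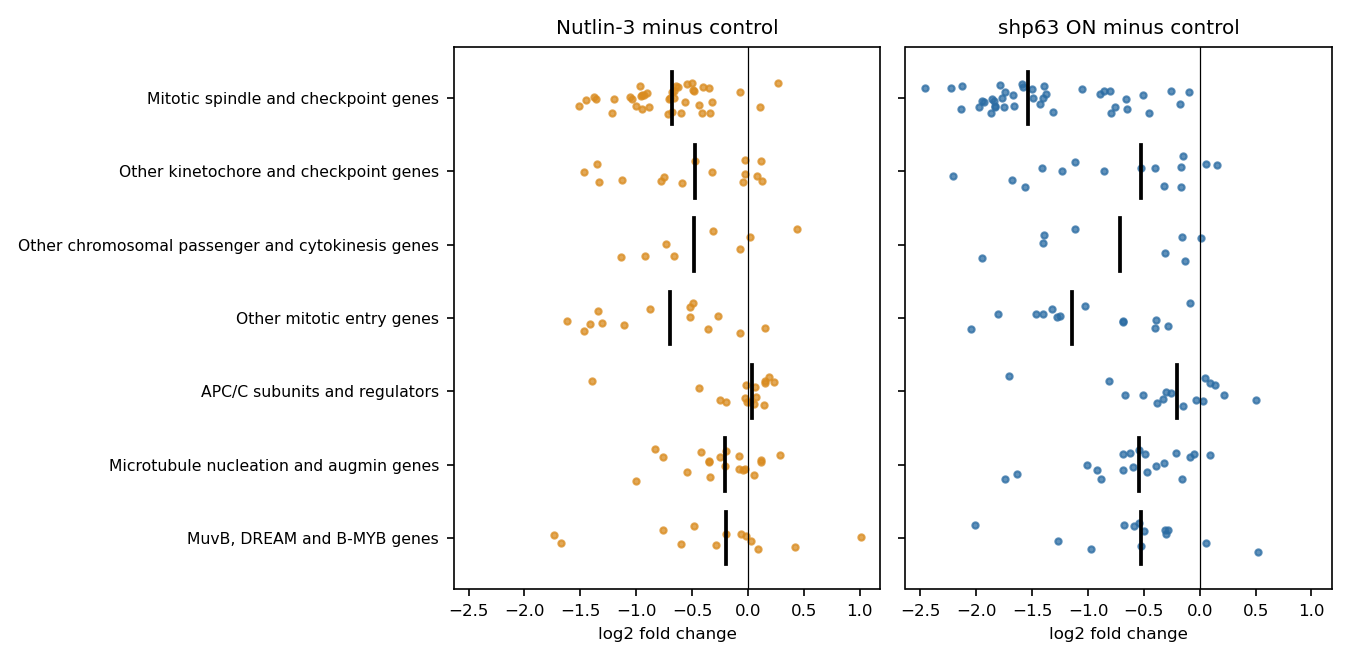
Log2 fold changes of the 40 mitotic spindle and checkpoint genes and of 6 further lists, Nutlin-3 minus control on the left and shp63 ON minus control on the right. Each dot is a gene and each black bar the list median. The members have a median of −0.68 on the left and −1.54 on the right, and APC/C genes lie around 0 on the left with FBXO5 apart.

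Over the series, 18.5% of genes were called with Nutlin-3, 36.2% in shp63 ON and 51.5% between shp63 ON and Nutlin-3. With each array centred on its median, 71.1% of calls with Nutlin-3 were rises, against 52.0% as deposited, 38.6% in shp63 ON, against 54.5%, and 33.5% between shp63 ON and Nutlin-3, against 53.3%, as centring shifted the median of all genes in that last comparison by −0.13. Replicates correlated at r = 0.997 with Nutlin-3, 0.997 in shp63 ON and 0.998 in control across genes, against 0.975 to 0.989 between groups. Of 8 squamous and basal markers 6 had a value, and their mean levels lay at percentiles 77.8 (DSC3) to 99.5 (PERP) of all genes, with KRT5 at 98.9. General epithelial markers lay as high, at percentiles 90.9 (EPCAM) to 99.9 (KRT8). Markers of other cell types spread widely: 6 fibroblast markers lay at percentiles 0.8 (DCN, LUM) to 66.5 (COL1A1), 5 leukocyte markers at 2.9 (PTPRC) to 85.6 (CD68), 4 endothelial markers at 12.1 (PECAM1) to 71.5 (CDH5) and 4 mesothelial markers at 27.5 (LRRN4) to 88.3 (MSLN). Of the 6 squamous markers, 3 rose and 0 fell with Nutlin-3, where 9.64% of all genes rose, and 4 fell in shp63 ON, where 16.5% of all genes fell. Of 5 leukocyte markers 2 rose with Nutlin-3 and 2 in shp63 ON, where 9.64% and 19.7% of all genes rose, and the part of either list in the results was not tested. The gene targeted by the shRNA was not analysed here. Only the shp63 ON cells saw doxycycline, so the drug, its duration and the shRNA cannot be told apart. Nothing in the labels states whether replicates were separate cultures, so the p-values may measure technical spread only, and 2 arrays against 2 cannot reach an exact two-sided permutation p under 0.333.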

How the data were processed

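RNA of 3 groups of 2 arrays was measured as log2 intensities of 32321 probe sets, used as the authors deposited them. Their range shows the log2 scale (2.94 to 14.9, array medians 6.57 to 6.70). Partek is named per the submitters' processing notes, with no version; for background correction, normalization and probe set summary nothing is stated. The number of arrays limits the precision, and no depth exists for them. Probe sets naming 1 gene were used, the brightest by mean over 6 arrays where several did (637 genes), giving 18404 genes, with no filter on dim ones.

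All 6 arrays were fitted with 1 mean per group in limma 3.58.1 (R 4.3.3, lmFit and eBayes, 3 residual degrees of freedom). P-values were Benjamini-Hochberg adjusted over all 18404 genes, with calls at under 0.05. Fold changes are differences of log2 means. The fit was also run on simulated data, with no outcome reported here. Alternatives were the replicate block, an intensity trend, quantile, median and cyclic loess scaling, a dim-gene filter, mean probe sets, 2-group fits, one-way analysis of variance and leaving out each array. Leaving out an array left 1 array in its group and 2 residual degrees of freedom, so p-values can rise without a change in the difference.

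Members and lists were chosen with earlier results of these data known. Every member is named. All arrays are given, per role, for the members with the largest change in each comparison and for those not called in a comparison with control. A few called genes per other list are named, mostly from those with the largest changes, with CKAP5 outside them.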

Additional observations from a re-analysis of the deposited data

How the results depend on the processing

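The count of members called lower was within 1.5 times of its value under every alternative run, with 1 exception: by the analysis of variance with Benjamini-Hochberg adjustment 15 were lower with Nutlin-3, where limma had 37. Leaving out each array gave 26 to 36 lower with Nutlin-3, 37 to 38 in shp63 ON and 29 to 32 between shp63 ON and Nutlin-3. BUB3 made 1 member called higher with Nutlin-3 in some fits, where limma had 0. These were the replicate block, an intensity trend, arrays centred on their medians, genes with a mean of at least 6, and only the arrays of the 2 groups. Leaving out either shp63 ON array repeats that 2-group fit. The median log2 fold change of the members was −0.62 with Nutlin-3, −1.60 in shp63 ON and −0.84 between them after median centring, −1.64 in shp63 ON after cyclic loess and −1.66 in genes with a mean of at least 6. Leaving out each array gave medians of −0.77 to −0.63 with Nutlin-3, −1.59 to −1.54 in shp63 ON and −0.80 to −0.59 between them. Values that did not pass turned sign: CDC25C without control replicate 1 (0.08 with Nutlin-3, 0.05 in shp63 ON, and −0.22 and −0.26 without control replicate 2), and between shp63 ON and Nutlin-3 ZWINT without Nutlin-3 replicate 1 (0.02, and −0.26 without replicate 2), ESPL1 (−0.07, −0.08 and −0.09) and BIRC5 (−0.05, −0.07 and −0.07) after quantile, median and loess scaling, and both without Nutlin-3 replicate 2 (−0.05 and −0.01, where ESPL1 had 0.15 without Nutlin-3 replicate 1). The cause was not tested.

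With the replicate block 37, 37 and 31 members were lower in the 3 comparisons, and it changed no call but that of BUB3 with Nutlin-3 (limma adjusted p = 0.0472). Deviations of same-numbered arrays correlated at −0.06, −0.02 and 0.11, so the numbers were not taken to pair the samples.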
